A study of Brassica napus with 15 samples.

Results

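The genes described here held a steady transcript level, in deposited values, from the dry seed to the young seedling of Brassica napus. A coding gene was called steady when it had at least 20 TPM (the share of a library that belongs to a gene after correction for its length, scaled to a fixed total) in all 15 libraries and when its highest TPM was at most 2 times its lowest. Of 101040 coding genes, 1701 had at least 20 TPM in all 15 libraries, and 50 of these, or 2.94%, were steady. The 50 genes were thus chosen on their TPM in every library, and the values below describe them without any test. Under other scalings of the libraries, described below, 41 and 22 of the 50 stayed within 2 times.

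The libraries came from seeds of 3 accessions of winter oilseed rape, named C129, C033 and C032, germinated in water in the dark. Whole seeds or seedlings were taken dry, at 0 hai (hai stands for the hours passed after imbibition), and at 2, 12, 36 and 72 hai, with no treatment other than imbibition. Each accession and time point gave 1 library, made from RNA of 3 biological replicates of 30 seeds that had been pooled, so no replicate error exists within a condition and no p-value is given. The spread printed beside a mean is the SD over the 3 accessions at 1 time point or over the 5 time points of 1 accession. Expressed as reads, the coding genes of a library held 19.4 to 41.7 M read equivalents (computed from coverage and gene length). For the steady genes the lowest value in any library rested on 359 read equivalents. With each read counted singly this gives a counting error of 5.28%, small against the band of 2 times that defines the genes. The reads came in pairs, so the error counted by pairs is larger. Counting error does not cover differences between seed lots or between library preparations.

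As background, a dry seed holds a large store of messenger RNA made during maturation on the mother plant. Water uptake restarts translation and respiration, part of the stored RNA is broken down, and new transcripts for cell wall loosening, reserve mobilisation and photosynthesis take its place as the radicle emerges and the seedling grows. Transcripts that keep a level share of the RNA through this exchange are of interest as internal references for quantitative PCR, where a gene that itself moves would distort every value divided by it. TPM is such a share: a transcript that stays constant in TPM can still differ in copies per seed when the amount of RNA per seed differs, and RNA per seed was not measured here. In whole seeds, fewer cells of a type and less RNA per cell cannot be told apart.

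Steadiness was uncommon among well expressed genes. Over the 1701 genes with at least 20 TPM throughout, the median ratio of highest to lowest TPM was 3.98, the quartiles were 2.92 and 6.08, and 5% of genes lay below 2.13. The 50 steady genes therefore form the lower edge of a continuous distribution, as the histogram of ratios shows, and not a separate group. Their ratios ran from 1.62 to 2.00 with a median of 1.89. No gene stayed within 1.5 times, 4 genes stayed under 1.7 times and 22 exceeded 1.9 times. Across the 15 libraries the coefficient of variation of a steady gene was 16.2 to 24.8% with a median of 19.2%, beside a median of 42.5% for the 1701 genes.

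**Figure D1:**
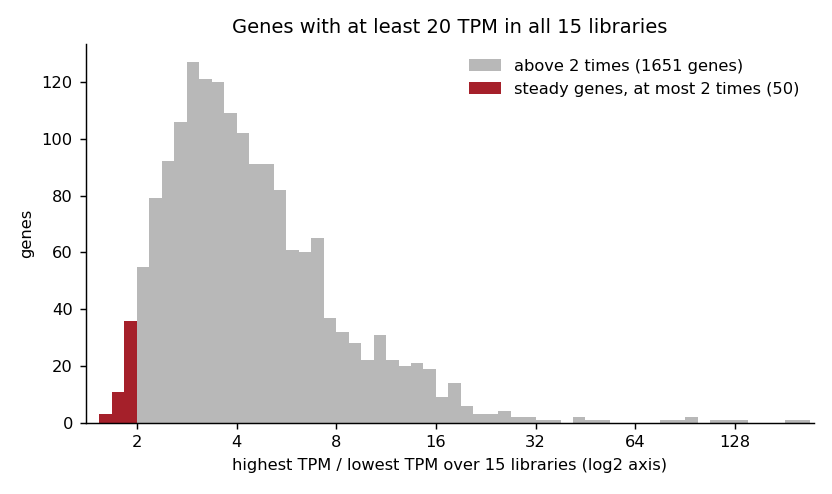
Number of genes (y axis) by the ratio of highest to lowest TPM over 15 libraries (x axis, log2 scale), for the 1701 genes with at least 20 TPM in every library. The 50 steady genes, in red, are the left edge of a single distribution with a median of 3.98.

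The values on both sides of the limit were nearly equal. BnaAnng34020D was the last gene inside, with 45.9 TPM in C032 at 0 hai, 91.8 TPM in C129 at 36 hai and a ratio of 1.99998. BnaC01g03430D was the first gene outside, with 23.2 TPM in C033 at 36 hai, 46.3 TPM in C129 at 0 hai and a ratio of 2.00013. The other genes just inside were BnaC05g35160D, BnaC08g05950D, BnaA04g27460D and BnaC03g14940D with ratios of 1.997, 1.995, 1.995 and 1.986, and the others just outside were BnaC09g16840D, BnaC03g69540D, BnaC06g03570D and BnaC05g41030D with 2.001, 2.001, 2.002 and 2.003. For the 5 genes inside, the lowest value carried a counting error of 2.01 to 4.87% with each read counted singly, more than the distance to the limit.

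Most of the steady genes had a moderate level. Their mean TPM ranged from 27.3 to 359 with a median of 43.8, beside a median of 74.5 for the 1701 genes. Above the same minimum, genes with a wider ratio reach higher values. The lower mean of the steady genes therefore follows in part from the rule and is no finding about them. For 20 of them the mean was under 40 TPM, and for only 2 of them, BnaC03g77220D and BnaC07g28800D, it was over 100 TPM. Among all genes above 0 TPM in every library, grouped by mean TPM, the share that stayed within 2 times was 1.37% at 20 to 50 TPM and 1.37% at 50 to 100 TPM. At 100 to 200 TPM it was 0.188%, or 1 of 533 genes, and above 200 TPM 0.333%, or 1 of 300 genes. Below 1 TPM, where few reads stand behind a value, none of 2097 genes stayed within 2 times.

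The narrowest band belonged to BnaA09g32990D, a gene of 4 exons and 848 bases on chromosome A09 (GSBRNA2T00129400001). Its level at 0, 2, 12, 36 and 72 hai was 51.5, 51.5, 48.3, 51.3 and 44.4 TPM in C129, 43.7, 45.8, 36.4, 33.3 and 31.9 TPM in C033, and 34.3, 35.4, 48.2, 43.1 and 45.9 TPM in C032. C129 was thus level until 36 hai, C033 was lower from 12 hai on and C032 was higher from 12 hai on, and the means over accessions differed little. They lay between 40.7 ± 7.7 TPM at 72 hai and 44.3 ± 6.9 TPM at 12 hai (SD, n = 3).

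BnaA02g04940D, the second narrowest with a ratio of 1.62, was also one of the faintest steady genes. It stood at 31.8, 35.8, 35.1, 32.7 and 29.0 TPM in C129 over the 5 time points, at 31.3, 35.1, 25.7, 26.4 and 22.3 TPM in C033 and at 24.5, 22.0, 33.1, 24.8 and 27.8 TPM in C032. The accessions overlapped, and its lowest value of 22.0 TPM lay just above the minimum of 20 TPM. BnaC06g41850D, with a ratio of 1.66, had 65.1, 67.9, 49.0, 65.5 and 56.5 TPM in C129, 68.1, 61.9, 41.1, 41.1 and 45.9 TPM in C033 and 52.8, 44.6, 64.4, 50.1 and 63.5 TPM in C032. C129 was above C032 at 0, 2 and 36 hai and below it at 12 and 72 hai, and 66.7% of the variance of its log2 TPM belonged to neither time nor accession, the highest such share among the 50 genes. BnaA01g34720D, with a ratio of 1.69, had 55.9, 58.2, 52.2, 51.3 and 40.5 TPM in C129, 41.3, 42.0, 36.6, 34.4 and 34.6 TPM in C033 and 36.9, 46.5, 49.0, 35.2 and 38.0 TPM in C032. The 4 libraries of C129 before 72 hai were its 4 highest.

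The next 6 genes by ratio were BnaC09g15600D, BnaC02g19320D, BnaC06g06870D, BnaC03g56080D, BnaA04g13600D and BnaC09g37000D, with ratios of 1.74, 1.76, 1.78, 1.78, 1.81 and 1.81. BnaC06g06870D, a gene of 11 exons on chromosome C06 (GSBRNA2T00053745001), combined a narrow band with a high level. It had 83.3, 87.9, 105, 86.5 and 93.4 TPM in C129, 71.3, 60.2, 69.6, 59.0 and 83.5 TPM in C033 and 66.7, 83.0, 86.5, 66.7 and 103 TPM in C032. Within C033 and within C032 it was highest at 72 hai, and within C129 it was highest at 12 hai. BnaC03g56080D had 74.8, 75.9, 76.6, 85.3 and 63.3 TPM in C129, 55.7, 52.3, 51.5, 51.9 and 57.2 TPM in C033 and 47.9, 56.6, 59.1, 52.1 and 69.9 TPM in C032. All 5 libraries of C129 lay above all 5 of C033, and 70.1% of its variance lay between accessions. BnaA04g13600D had 61.1, 63.3, 62.6, 71.0 and 39.4 TPM in C129, 63.6, 53.8, 58.2, 69.1 and 51.9 TPM in C033 and 44.3, 48.5, 46.7, 50.4 and 41.3 TPM in C032. It was the only steady gene in which every library of C033 lay above every library of C032, beside 0.764% of the 1701 genes.

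BnaC03g77220D, a gene of 9 exons and 3355 bases on chromosome C03 (GSBRNA2T00037528001), was the most abundant of the 50 by a wide margin. It had 505, 493, 410, 394 and 362 TPM in C129, 386, 314, 286, 258 and 266 TPM in C033 and 350, 422, 361, 278 and 294 TPM in C032. Its mean over accessions was 413 ± 81 TPM at 0 hai and 307 ± 49 TPM at 72 hai (SD, n = 3), and in each accession the value at 72 hai was lower than that at 0 hai. Its band of 1.96 times thus held a common downward course as well as the higher level of C129, and time and accession together took all but 8.63% of its variance. BnaC07g28800D followed with a mean of 111 TPM: its values were 134, 136, 141, 161 and 114 TPM in C129, 91.4, 81.4, 92.2, 91.0 and 104 TPM in C033 and 84.3, 104, 117, 86.7 and 132 TPM in C032. All of its C129 libraries lay above all of its C033 libraries. The other genes among the 10 most abundant were BnaC02g33660D, BnaC06g06870D, BnaA03g57640D, BnaC05g35160D, BnaC09g31260D, BnaC07g01200D, BnaAnng34020D and BnaA09g39700D, with mean TPM of 92.1, 80.3, 79.4, 77.8, 69.5, 68.4, 64.5 and 63.3.

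**Figure D2:**
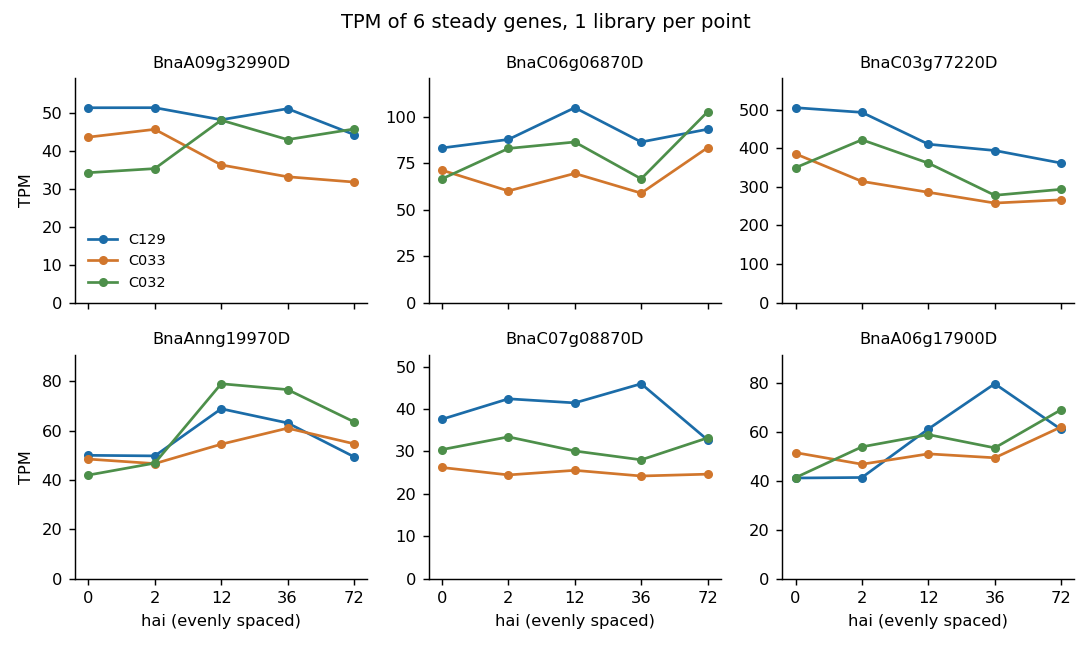
TPM (y axis, from 0) of 6 steady genes at 0, 2, 12, 36 and 72 hai (x axis, evenly spaced), 1 library per point and 1 line per accession. BnaA09g32990D has the narrowest band, BnaC03g77220D the highest mean of 359 TPM, BnaAnng19970D the largest share of variance between time points and BnaC07g08870D the largest share between accessions, where the C129 line lies above the C033 line throughout.

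What small movement the steady genes had was divided between time, accession and the remainder (the part of the variance of log2 TPM that neither explains alone, which holds both library noise and courses particular to 1 accession). The median share between time points was 24.1%, that between accessions was 46.7% and the remainder was 28.7%. Over the 1701 genes the medians were 68.4% for time, 17.0% for accession and 10.7% for the remainder. Accession held the largest share in 29 of the 50 genes, time in 14 and the remainder in 7. This order held only in deposited TPM: the median share was 56.6% for time and 15.5% for accession with the coding genes brought to one total, and 80.0% and 7.10% with libraries scaled by the median of ratios, both described below. With 5 time points and 3 accessions, values without any structure would give 28.6% to time, 14.3% to accession and 57.1% to the remainder on average. The rule caps movement over time and accession alike, so these shares describe what was left under the cap and are no finding about the 50 genes.

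In deposited TPM the genes led by time did not share 1 course. BnaAnng19970D, a gene of 11 exons (GSBRNA2T00044002001), had 70.0% of its variance between time points. It had 50.0, 49.8, 68.9, 63.1 and 49.4 TPM in C129, 48.5, 46.7, 54.5, 61.0 and 54.7 TPM in C033 and 42.0, 46.9, 79.0, 76.6 and 63.6 TPM in C032. In every accession both the 12 hai and the 36 hai library lay above the 0 hai and the 2 hai library, with means of 46.8 ± 4.2 TPM at 0 hai and 67.5 ± 12.3 TPM at 12 hai (SD, n = 3). BnaC05g43970D, with 62.9% of its variance between time points, had 49.4, 46.4, 70.9, 55.4 and 66.1 TPM in C129, 46.1, 46.6, 50.1, 39.3 and 57.5 TPM in C033 and 38.5, 49.6, 54.0, 41.8 and 69.0 TPM in C032. It was lower at 36 hai than at 12 hai and at 72 hai in all 3 accessions.

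BnaA06g17900D, with 56.3% between time points and the lowest share between accessions, 1.95%, had 41.1, 41.3, 61.2, 79.6 and 61.0 TPM in C129, 51.5, 46.8, 51.0, 49.4 and 62.0 TPM in C033 and 41.3, 53.9, 58.9, 53.4 and 69.0 TPM in C032. It was higher at 72 hai than at 0 hai in each accession, and its highest library was C129 at 36 hai. BnaC04g24310D, with 56.9% between time points, had 77.2, 61.5, 76.1, 82.8 and 42.8 TPM in C129, 71.7, 71.2, 60.1, 55.2 and 42.0 TPM in C033 and 55.0, 62.9, 64.4, 60.3 and 54.3 TPM in C032. Its value at 72 hai was the lowest of each accession, by a narrow margin in C032.

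Led by accession were, in order, BnaC07g08870D, BnaC06g18940D, BnaA06g19730D, BnaC03g56080D and BnaA09g39700D, with 85.1, 79.1, 74.5, 70.1 and 67.0% of their variance between accessions. BnaC07g08870D, a gene of 3 exons on chromosome C07 (GSBRNA2T00105680001), had 37.6, 42.4, 41.4, 45.9 and 32.7 TPM in C129, 26.2, 24.5, 25.5, 24.2 and 24.6 TPM in C033 and 30.4, 33.4, 30.1, 28.0 and 33.2 TPM in C032. Its mean over the 5 time points was 25.02 ± 0.8 TPM in C033, beside 40.01 ± 5.1 TPM in C129 and 31.0 ± 2.3 TPM in C032 (SD, n = 5). It was the only steady gene with every library of C033 below every library of C032, beside 1.59% of the 1701 genes. BnaC06g18940D had 42.6, 51.0, 39.4, 43.7 and 38.6 TPM in C129, 29.5, 27.0, 27.8, 30.7 and 26.2 TPM in C033 and 29.9, 35.5, 28.4, 28.4 and 36.3 TPM in C032. BnaA06g19730D had 50.9, 50.5, 60.9, 58.3 and 41.9 TPM in C129, 37.8, 32.3, 33.7, 35.5 and 32.9 TPM in C033 and 32.2, 35.3, 44.6, 39.7 and 36.4 TPM in C032. In both genes the C129 libraries lay above all C033 libraries, while C033 and C032 overlapped.

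In deposited TPM, though not with the median of ratios, the higher level in C129 was shared by most of the 50 genes. Averaged over time on the log scale, C129 was the highest accession in 47 genes, C033 in 1 and C032 in 2, and C033 was the lowest in 41, C032 in 9 and C129 in none. These accession counts were not made over the 1701 genes. The single highest library was C129 at 36 hai in 18 genes, beside 37.7% of the 1701. It was C129 at 12 hai in 11, beside 19.3%, and at 2 hai in 8, beside 6.11%. The single lowest library was C032 at 0 hai in 12 genes, beside 22.8%. It was C033 at 36 hai in 11 genes, beside 14.6%, at 72 hai in 8, beside 20.8%, and at 12 hai in 7, beside 6.17%. All 5 libraries of C129 lay above all 5 of C033 in 14 genes, beside 6.35% of the 1701 genes, and the reverse held in no steady gene, beside 0.235%. C129 lay wholly above C032 in 4 genes, beside 2.94%, and wholly below in none, beside 0.412%. The rule used these libraries, so nothing is read from these counts about the 50 genes as a class.

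**Figure D3:**
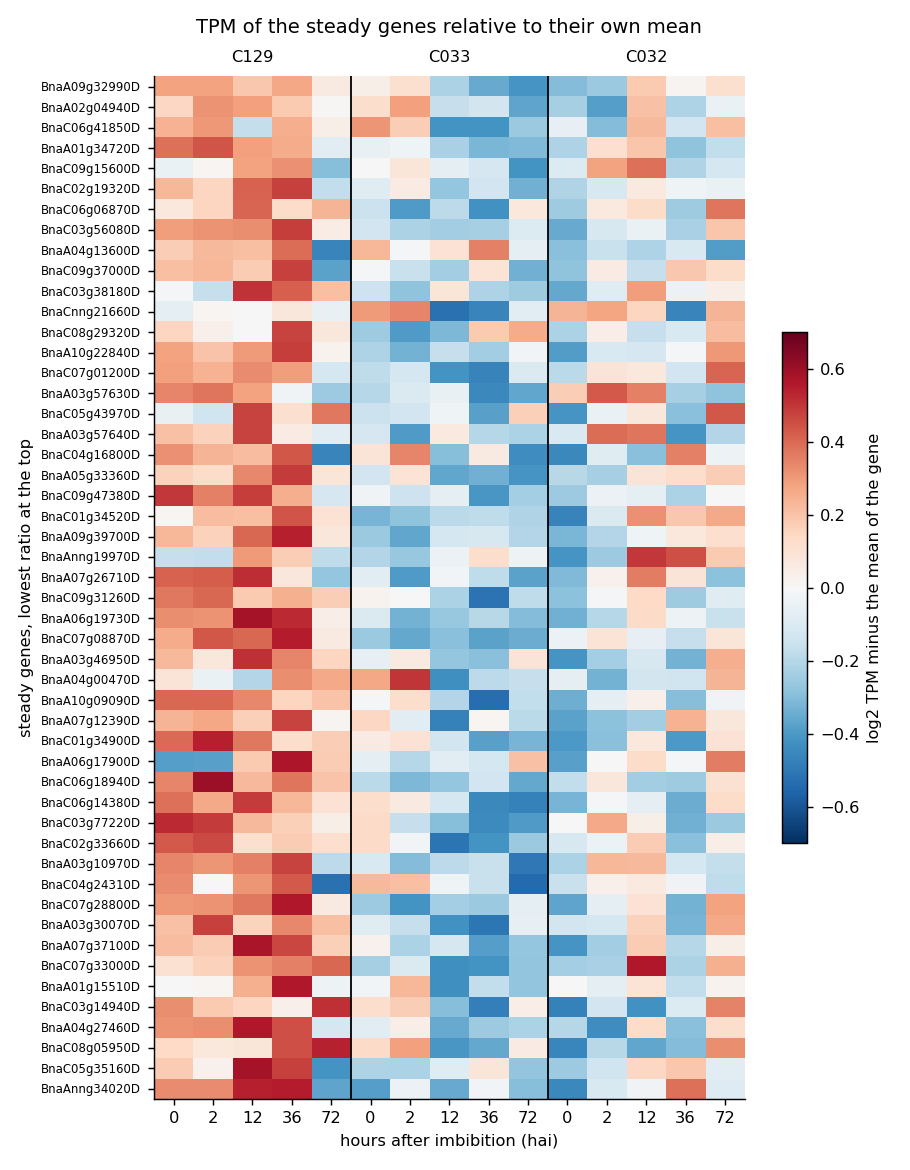
Log2 TPM minus the mean log2 TPM of the gene (colour, red higher and blue lower) for the 50 steady genes (rows, lowest ratio at the top) in the 15 libraries (columns, hai within each accession). Red prevails in the C129 columns up to 36 hai and blue in the C033 columns from 12 hai on in deposited TPM, an order of accessions that turns with the median of ratios.

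The coding genes took a different total in each library. Summed over the 50 genes, TPM ranged from 2256 in C033 at 36 hai to 3360 in C129 at 36 hai, and the coding genes together took from 608866 TPM in C033 at 12 hai to 904932 TPM in C129 at 36 hai, the rest belonging to non-coding genes. As a share of coding TPM the 50 genes held 0.282 to 0.432%, highest in C129 at 0 hai and lowest in C033 at 72 hai. The lowest share of each accession came at 72 hai, at 0.308% in C129, just below 0.310% in C032 and above 0.282% in C033. Seen on the log2 scale, the median deviation of the 50 genes from their own means was 0.24, 0.24, 0.31, 0.36 and 0.05 in C129 over the 5 time points. In C033 it was -0.07, -0.10, -0.23, -0.25 and -0.25, and in C032 it was -0.27, -0.08, 0.09, -0.17 and 0.10.

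Which genes counted as steady changed with the scale. When the coding genes of each library were rescaled to a common total, 206 genes met the rule, 41 of the 50 among them. That total was above the coding sum of every library, so the minimum of 20 TPM stood for less deposited TPM. In deposited TPM, a minimum of 10 TPM alone gave 127 genes. When libraries were scaled by the median of ratios (each library divided by the median, over genes, of its ratio to the geometric mean of all libraries), 204 genes met it, with 22 of the 50 among them. The rescaled ratios of the 50 genes had a median of 1.80 and reached 2.40 with the coding total, and had a median of 2.03 and reached 3.38 with the median of ratios. The gene that left the band farthest was BnaA04g00470D, whose ratio was 1.9 in deposited TPM, 1.95 with the coding total and 3.38 with the median of ratios.

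The course of the 50 genes also turned with the scale. In deposited TPM the time of the highest mean over accessions, taken on the log scale, was spread, with 4 genes at 0 hai, 10 at 2 hai, 13 at 12 hai, 11 at 36 hai and 12 at 72 hai. With the coding total 22 genes were highest at 12 hai, none at 72 hai, and 37 were lowest at 72 hai. With the median of ratios 28 genes were highest at 0 hai and 20 at 2 hai, none was highest at 72 hai and 32 were lowest there. Between 2 and 12 hai the 50 genes had a median log2 ratio in deposited TPM of 0.05 for C129, then -0.17 for C033, then 0.11 for C032. With the median of ratios the same steps gave -0.52, -0.52 and -0.41. C129 was the highest accession in 47 genes in deposited TPM, in 37 with the coding total and in 4 with the median of ratios, under which it was the lowest accession in 34. These counts of times and accessions were not made over the 1701 genes. In each accession the median-of-ratios divisor was larger from 12 hai on than at 0 and 2 hai. At each time point it was largest in C129. A gene level in deposited TPM therefore turns lower in those libraries by construction, and the counts are no finding about the 50 genes.

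**Figure D4:**
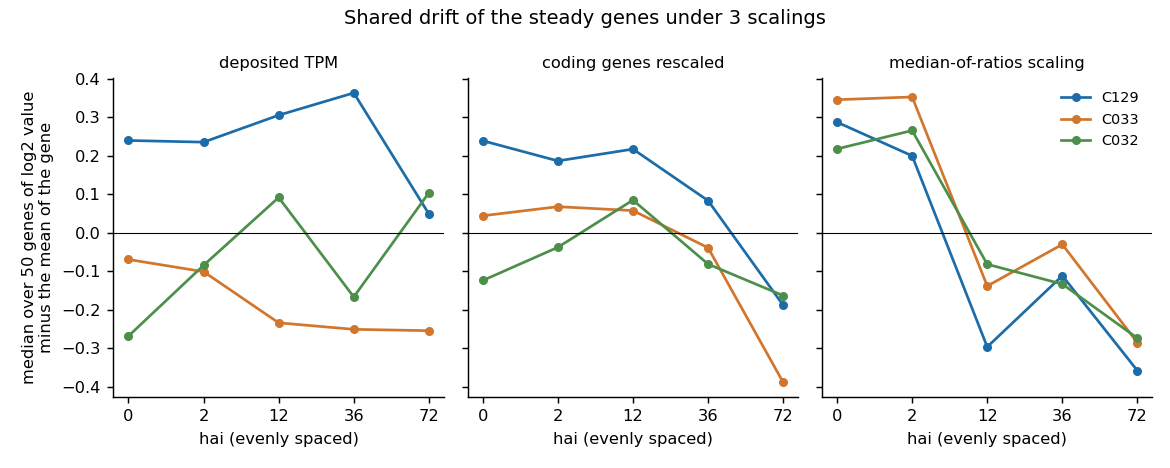
Median over the 50 steady genes of the log2 value minus the mean of the gene (y axis), by hai (x axis, evenly spaced) and accession (line), in deposited TPM, after rescaling of the coding genes to one total, and with median-of-ratios scaling. The C129 line lies highest up to 36 hai in the first panel, and under median-of-ratios scaling all 3 lines are above 0 at 0 and 2 hai and below 0 from 12 hai on.

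Under all 3 scalings 21 genes stayed within 2 times. Ordered by their widest ratio, the first was BnaC06g06870D, at 1.78 in deposited TPM, 1.46 with the coding total and 1.7 with the median of ratios. BnaC03g56080D followed at 1.78, 1.44 and 1.62, and BnaC03g38180D at 1.81, 1.74 and 1.51. BnaA10g22840D and BnaC05g43970D came next with widest ratios of 1.83 and 1.84. BnaA09g32990D, which had the narrowest band in deposited TPM, was not among the 21, since its ratio was 2.01 with the median of ratios. These 21 genes were picked over all libraries and scalings, and no further library was at hand to read them in.

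Steps between neighbouring time points give a finer view of the band, although the rule limits each of them. A ratio beyond 1.5 in at least 1 accession was found between 0 and 2 hai in none of the 50 genes, beside 8.29% of the 1701, and between 2 and 12 hai in 11 genes, beside 58%. It was found between 12 and 36 hai in 5 genes, beside 71.9%, between 36 and 72 hai in 16 genes, beside 73.4%, and between 0 and 72 hai in 21 genes, beside 85.1%. Between accessions at 1 or more time points, it was found for C129 against C033 in 35 genes, beside 86.9%, for C129 against C032 in 26, beside 78.8%, and for C033 against C032 in 12, beside 55.6%. In deposited TPM 44 of the 50 genes were higher at 2 than at 0 hai in C032 (median log2 ratio 0.25). With the coding total 37 were higher (0.15), and with the median of ratios 31 (0.11). In C129 43 genes were lower at 72 than at 36 hai in deposited TPM, with a median of -0.35. In deposited TPM the 1701 genes moved the same way over these steps in their median log2 deviation from their own means. It went from -0.36 to -0.22 in C032 and from 0.56 to -0.02 in C129 over these steps. The step from 36 to 72 hai in the other accessions depended on the scale. In C032 37 genes were higher in deposited TPM (median 0.22), but 33 were lower with the coding total (-0.14) and 36 with the median of ratios (-0.19). In C033 27 genes were higher in deposited TPM (median 0.02), but 41 were lower with the coding total (-0.32) and 39 with the median of ratios (-0.23). C129 kept its direction, with 43 and 41 genes lower under these scalings. From 36 to 72 hai the median deviation of the 1701 genes in deposited TPM went from 0.09 to 0.08 in C032. In C033 it went from -0.09 to -0.28. Counts of genes higher or lower at a step were not made over the 1701 genes.

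Because each accession has its own 5 libraries, the rule could be set in one accession and read in another that it had not used. Within C129, 864 of 3109 genes with at least 20 TPM stayed within 2 times over the 5 time points, within C033 718 of 2131 and within C032 781 of 2354. Of the genes steady in C129 that had at least 20 TPM throughout in the second accession, 77.0% were steady in C033 and 70.6% in C032. Among genes that were not steady in C129 the shares were 20.9% and 21.7%. Genes chosen in C033 were steady in C129 in 53.0% and in C032 in 64.5%, beside 8.20% and 14.1% of those not steady in C033. Genes chosen in C032 were steady in C129 in 51.8% and in C033 in 71.2%, beside 11.0% and 18.2%. In all 6 readings the share was thus larger among the chosen genes, although the accessions share the germination programme and the processing, and these are counts with no test.

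**Figure D5:**
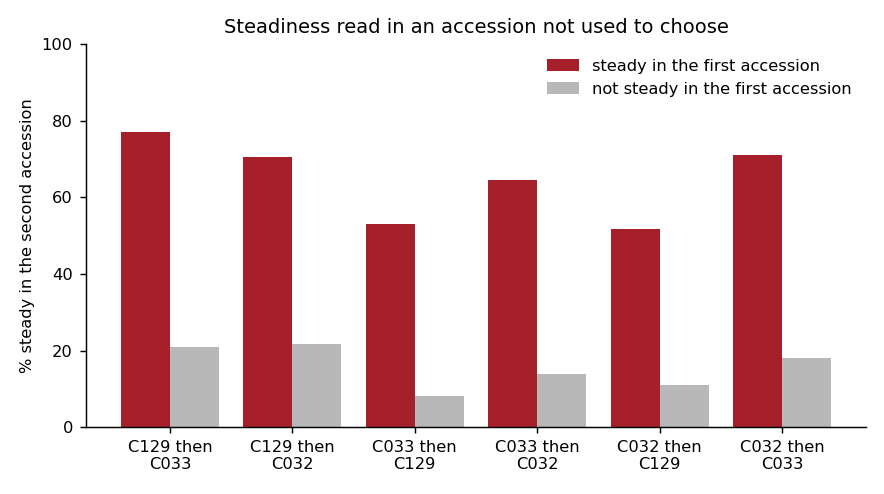
Share of genes (y axis, %) that stayed within 2 times over the 5 time points of the second accession, for genes that were steady (red) or not steady (grey) in the first accession, with at least 20 TPM in all libraries of both. The red bars lie between 51.8 and 77.0% and the grey bars between 8.20 and 21.7%.

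Only part of the genes steady within each accession were steady over all 15 libraries. In each of the 3 accessions taken alone 238 genes stayed within 2 times, and 188 of them were not among the 50. In deposited TPM the highest accession mean was that of C129 for 179 of these 188, that of C032 for 8 and that of C033 for 1. The median ratio of highest to lowest accession mean was 1.5. These counts were not made over other genes or with the other scalings. Among the 50, C129 was the highest accession in 47 genes in deposited TPM but in 4 with the median of ratios. Why the 188 genes were not steady over all libraries was not tested. At a single time point the accessions were close: 85.6% of the 4181 genes that reached 20 TPM in all 3 of them lay within 2 times of each other at 0 hai. The shares were 81.6% of 4214 genes at 2 hai, 74.5% of 5221 at 12 hai, 75.9% of 5072 at 36 hai and 88.6% of 6141 at 72 hai.

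Single time points and accessions also decided membership. Without C129 the rule took 272 genes, without C033 175 and without C032 96. Of the 272 genes chosen without C129, 263 had at least 20 TPM throughout in C129, and 188 were steady there. Of the 175 chosen without C033, 137 reached that minimum in C033 and 117 were steady there. Of the 96 chosen without C032, 75 reached it in C032 and 63 were steady there. No share over other genes was taken beside these counts. Without 0 hai the rule took 64 genes and without 2 hai 65, so that these libraries removed few genes. Without 12 hai it took 113 genes, without 36 hai 240 and without 72 hai 185. The 36 hai libraries removed 190 genes, of which 104 were higher and 86 lower there than at the other times, and the 72 hai libraries removed 135, of which 114 were lower there. These splits were made in deposited TPM alone, again with no share over other genes. Without the single library of C129 at 36 hai 93 genes met the rule, and without that at 12 hai 85 genes did.

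The gene models of the steady genes were longer and held more exons than those of other coding genes, a property the rule did not use. Their median length was 1732 bases with 7 exons, beside 1385 bases and 5 exons for the 1701 genes and 1006 bases and 3 exons for all coding genes. Models of a single exon made up 4% of the steady genes, BnaC05g35160D and BnaAnng34020D, beside 8.99% of the 1701 genes and 18.5% of all coding genes. Longer models collect more reads at the same TPM, and the part of length in the steadiness was not tested. None of the 50 models overlapped another model in the table, a share close to the 2.29% of the 1701. Reads from transcripts that run past the end of a neighbouring model were not examined. B. napus carries an A and a C subgenome, and reads of near-identical copies on the other subgenome could be split between them by the mapping, which the values cannot show.

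By the chromosome in their names 23 of the genes, or 46%, lay on the A and 27, or 54%, on the C subgenome, beside 47.4 and 51.8% of the 1701 genes. They were spread over 20 of the chromosome labels, with 5 genes on A03, 4 each on C03, C06, C07 and C09, and 1 to 3 on each of the others, including 2 and 1 on unplaced parts of the A and the C subgenome. A single pair lay side by side. BnaA03g57630D and BnaA03g57640D, on the minus strand of the same scaffold at bases 2731 to 5147 and 5255 to 6931 of the assembly of Chalhoub et al., were separated by 107 bases. BnaA03g57630D, with 59.3% of its variance between time points, had 35.4, 36.2, 33.9, 27.4 and 23.4 TPM in C129, 24.3, 26.1, 26.9, 20.4 and 21.7 TPM in C033 and 31.4, 37.6, 35.6, 23.8 and 23.0 TPM in C032. BnaA03g57640D had 90.1, 87.3, 108, 81.4 and 74.1 TPM in C129, 72.0, 59.2, 81.7, 68.0 and 67.0 TPM in C033 and 72.4, 102, 101, 58.6 and 67.7 TPM in C032. Both were higher at 2 and 12 hai than at 36 and 72 hai in C032 and both were lowest in C129 at 72 hai among its libraries, while the second stood at more than 2 times the TPM of the first in every library.

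No product or Arabidopsis match was paired with any of the 50 gene names in the sources used here, apart from BnaA01g15510D, which RefSeq lists as protein coding under the same name. No function is therefore given for the steady genes. BnaA01g15510D had a ratio of 1.98, a mean of 30.7 TPM and 64.6% of its variance outside time and accession, with its lowest library in C033 at 12 hai and its highest in C129 at 36 hai.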

How the data were processed

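RNA of 15 pooled samples was sequenced as paired ends of 100 bp. After adapter removal, the authors aligned reads by HISAT against the genome of Chalhoub and colleagues, and StringTie gave the gene values (versions of both: not given in the sources used here). TPM, as deposited by the authors, were computed over coding and non-coding genes together. The coverage, as deposited by the authors, is the mean read depth of each gene and gave the read equivalents at a read length of 100. The 101040 coding genes were used as deposited, and 4236 non-coding genes were left out. A ratio of highest to lowest TPM, sums of squares of log2 TPM and counts were computed with Python 3.11.15, numpy 2.4.6, pandas 2.3.3 and matplotlib 3.10.9. Named genes were the 10 with the lowest ratio, the 10 with the highest mean, the 5 with the largest share between time points, the 5 with the largest between accessions, and the 5 nearest the limit on each side. BnaA01g15510D, BnaA04g00470D, BnaC03g38180D and BnaA10g22840D were named after their values were seen. Lists of product keywords fixed for the genes could not be applied, since 1 of 50 names matched RefSeq (assembly Da-Ae), by symbol alone. No sequence is printed for the same reason. The genes and lists were chosen with earlier results of these data known. Alternatives were the scaling, the minimum, the ratio, 1 TPM added, and each library, accession or time point left out. On simulated data all 200 planted steady genes were found. They were built to lie inside the limits of the rule, so this checks the code alone.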

Additional observations from a re-analysis of the deposited data

How the results depend on the processing

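The number of steady genes, 50 in deposited TPM, was 206 with the coding total, 204 with the median of ratios and 21 where all 3 scalings had to hold, a setting chosen after seeing the data. The minimum of 20 TPM was applied after each scaling, so it did not stand for the same deposited TPM. The number in deposited TPM was 127 at a minimum of 10 TPM, 6 at 50 TPM and 298 above 0 TPM. It was 0 at a limit of 1.5 times and 471 at 3 times, as fewer or more genes could pass. It was 272, 175 and 96 without C129, C033 and C032, and 113, 240 and 185 without 12, 36 and 72 hai. With each library left out in turn it ranged from 50 to 93, and only C129 at 36 hai (93) and at 12 hai (85) moved it by over 1.5 times. Of the 50 genes, 22 stayed within 2 times with the median of ratios. With the coding total and with the median of ratios, the median share of variance was 56.6 and 80.0% between time points and 15.5 and 7.10% between accessions. Among genes steady in C129, 67.5% were steady in C033 at 50 TPM, and 79.5 and 82.0% in C032 under the other scalings. Among those steady in C033, 66.8 and 69.3% were steady in C129 under the other scalings and 42.1% at 50 TPM, and 73.4 and 70.7% in C032 under the other scalings. Among those steady in C032, 61.9 and 72.9% were steady in C129 under the other scalings, 57.5% at 10 TPM and 38.6% at 50 TPM, and in C033 66.9% with the coding total and 58.5% at 50 TPM. The cause of these shifts beyond the construction of each setting was not tested. No paired analysis was possible because the genes were chosen on all 15 libraries and no result comes from a test. With 1 library per condition, no difference can be set against replicate error.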
